A study of Mus musculus with 11 samples.

Results

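The adipocyte genes studied here were 10 genes followed in mouse skin after a BET bromodomain inhibitor: the adipokine genes Adipoq, Lep, Retn and Cfd, the transcription factor genes Pparg and Cebpa, the lipid-handling genes Fabp4, Agpat2 and Lpl, and Mest. All probe sets annotated to each of the 10 genes alone were taken, the brightest over all arrays being the main one. They are 10 genes beside 18194 genes with such a probe set. A probe set was found for 9 of the 10, and all 9 passed the filter on dim genes. No probe set was annotated to Cfd alone, so Cfd was not analysed here. The probe set of a gene was chosen by its brightness over all arrays, and the genes were selected on earlier results of these data, the measured differences of treated from vehicle arrays. Their differences from vehicle are therefore descriptions.

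Skin RNA was measured on 11 arrays. Skin was taken 6 h (4 arrays) or 24 h (4 arrays) after 1 mg/kg ABBV-075, the compound mivebresib, which blocks the BET readers of acetylated histones. The other 3 arrays hold skin of mice that had received vehicle, and the labels do not say at which of the times it was collected. The labels name no strain, sex, age, body site or genotype, and the same 3 vehicle arrays serve both time points. The design counts 3 vehicle mice and 4 dosed mice without saying that the 4 are counted per time, and each array was taken as 1 mouse.

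Skin holds adipocytes in its deepest layer, the dermal white fat that lies under and around the hair follicles and shrinks and grows with the hair cycle. A mature adipocyte is kept in its state by the nuclear receptor PPARγ together with C/EBPα, which bind side by side at genes for fat storage and for secreted adipokines. Adiponectin, leptin, resistin and adipsin are such secreted products. Mest is an imprinted gene expressed from the paternal allele, and in mouse fat its level is known to follow the expansion of adipocytes.

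The genes lie apart in the genome, by the RefSeq coordinates of GRCm38.p6. Lep (chromosome 6, 29060221 to 29073876), Mest (chromosome 6, 30733506 to 30748466) and Pparg (chromosome 6, 115360879 to 115490404) share a chromosome. Adipoq lies on chromosome 16 (23146536 to 23157968), Retn on chromosome 8 (3655770 to 3659818) and Cebpa on chromosome 7 (35119293 to 35121928). Promoter sequence from RefSeq was found for 8 of the 10 genes, with 12 windows because Mest and Pparg have 3 listed starts each. The 250 bases before the start are shown for the adipokine genes Lep and Adipoq, for the second listed start of Mest and for the most downstream start of Pparg, since these 4 genes carry the results below. Each is printed 5′ to 3′ on the strand of the gene. Capitals mark matches, on either strand, to TTGCGCAA (a C/EBP palindrome), the PPAR-RXR direct repeat (a pair of AGGTCA elements with 1 base between them), its single element AGGTCA, the TATA box TATAAA or the CCAAT box.
Lep, chr6:29059971-29060220, + strand: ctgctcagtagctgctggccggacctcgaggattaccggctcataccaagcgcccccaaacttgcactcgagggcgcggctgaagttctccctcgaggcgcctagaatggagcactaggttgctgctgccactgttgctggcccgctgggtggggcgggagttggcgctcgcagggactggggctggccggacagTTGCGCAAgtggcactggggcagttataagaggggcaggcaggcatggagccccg
Adipoq, chr16:23146286-23146535, + strand: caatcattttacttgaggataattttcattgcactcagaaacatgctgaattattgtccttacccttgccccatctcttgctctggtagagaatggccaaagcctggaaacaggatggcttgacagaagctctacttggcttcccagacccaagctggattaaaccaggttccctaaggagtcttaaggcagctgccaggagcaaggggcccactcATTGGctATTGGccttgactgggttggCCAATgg
Mest, chr6:30737800-30738049, + strand: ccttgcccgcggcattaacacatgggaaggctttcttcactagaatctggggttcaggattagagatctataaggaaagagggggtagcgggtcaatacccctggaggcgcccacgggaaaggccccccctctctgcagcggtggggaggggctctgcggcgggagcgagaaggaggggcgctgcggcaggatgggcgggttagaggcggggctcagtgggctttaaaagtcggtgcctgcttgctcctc
Pparg, chr6:115421816-115422065, + strand: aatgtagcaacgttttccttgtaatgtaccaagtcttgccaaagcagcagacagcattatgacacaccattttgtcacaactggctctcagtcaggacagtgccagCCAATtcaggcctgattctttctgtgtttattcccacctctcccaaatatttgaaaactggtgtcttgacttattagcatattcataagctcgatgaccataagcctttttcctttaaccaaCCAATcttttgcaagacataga

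The C/EBP palindrome stood 55 bases before the start of Lep and in no other of the 12 windows. It occurred in 0.164% of the 32851 promoter windows of the same length. Adipoq held CCAAT at 3 places within 34 bases of its start, a motif found in 33.8% of all windows. The most downstream Pparg window held CCAAT at 144 and 22 bases before the start, while the single element AGGTCA (14.0% of all windows) stood in the 2 upstream Pparg windows. The full direct repeat was in none of the 12 windows and in 0.0335% of all. The second Mest window held none of the motifs searched. A match of letters is a description of the sequence and shows no binding.

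Values below are on the log2(intensity + 16) scale after quantile normalization, on which 4.00 is an intensity of 0 or less and the 40th percentile of an array is 5.21. Changes are differences on this scale, which understates those of dim genes. Over the 13710 genes kept, limma with Benjamini-Hochberg adjustment called 0 genes (0%) at an adjusted p under 0.05 in each of the 3 contrasts. At an unadjusted p under 0.05 it counted 2203 genes (16.1%) at 6 h, 1046 (7.63%) at 24 h and 1263 (9.21%) between 24 h and 6 h, and an unequal-variance test called 0 in each. As deposited, 852 genes were called at 6 h (850 lower), and with array weights 2497. The weights were uneven, from 0.27 for 24 h replicate 4 to 4.88 for vehicle replicate 3, with 2.87 for 6 h replicate 2. The arrays differed in brightness, with a trimmed mean of 82.8 to 243.7 at 6 h, 115.9 to 183.2 at 24 h and 205.2 to 244.0 in vehicle. The 5′ to 3′ ratio of actin, which is low where RNA is short, was 0.0725 to 0.425 at 6 h, 0.198 to 0.529 at 24 h and 0.484 to 0.593 in vehicle. After normalization the median of all gene differences was 0.0036 (6 h) and -0.020 (24 h), while as deposited it was -0.68 and -0.62.

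The labelled tissue held adipocyte transcripts on every array. A list of 22 other adipocyte markers, 17 of which were measured, averaged 8.63 to 9.27 at 6 h, 8.08 to 10.03 at 24 h and 9.66 to 10.04 in vehicle. Their means lay below vehicle in 17 of 17 at 6 h (median difference -0.98) and in 16 of 17 at 24 h (median -0.68). Of all genes, 49.6% had a lower mean at 6 h and 52.4% at 24 h. 24 h replicate 4 stood apart, with the lowest adipocyte mean of all arrays (8.08), and without it the 24 h median of the list was -0.25. In bulk skin, fewer adipocytes and less RNA of these genes per adipocyte cannot be told apart.

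All 9 measured genes had a lower mean than vehicle at 6 h and at 24 h, with median differences of -0.77 and -0.87. Lower means were not particular to adipocyte genes. At both times they were found for 11 of 11 macrophage markers (medians -0.96 and -0.91) and 12 of 12 fibroblast markers (medians -0.38 and -0.59). Of the basal keratinocyte markers, 0 of 9 had a lower mean at either time. Of the 9 adipocyte genes, 7 were lower at 6 h after median scaling. None of the 9 passed over all genes in the main limma fit. At 6 h the groups did not overlap for 3 of them, Mest, Pparg and Agpat2, where 8.8% of all genes lay wholly below vehicle. At 24 h this held for 2, Pparg and Cebpa, where 6.04% of all genes did. Without 24 h replicate 4 the 24 h median of the 9 genes was -0.46, and all 9 means remained below vehicle. Leaving out the same array gave 24 h medians of -0.24 for macrophage and -0.22 for fibroblast markers. For basal keratinocyte markers the 24 h median was 0.56 with that array and 0.09 without it.

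**Figure D1:**
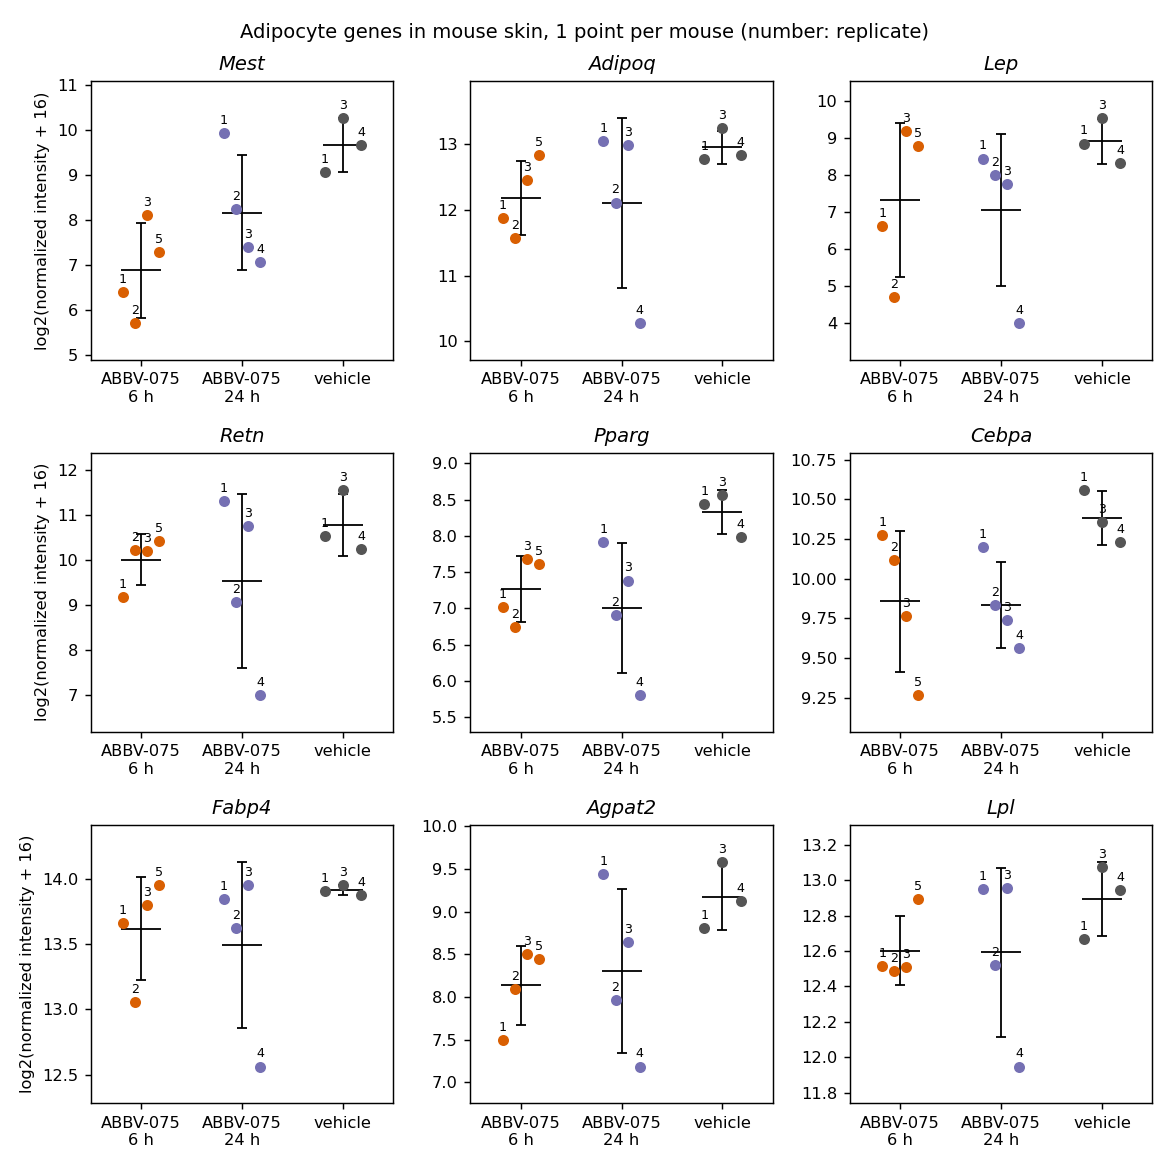
Main probe set of each gene on every array, on the log2(normalized intensity + 16) scale. Points are single arrays labelled with their replicate number, horizontal bars are group means and error bars are SD (n = 4, 4 and 3). At 24 h, replicate 4 is the lowest point in all 9 panels, and for Mest the 4 arrays at 6 h (5.70 to 8.11) lie below the 3 vehicle arrays (9.05 to 10.26).

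Mest had the largest difference of the 9 genes at 6 h. As deposited, its intensity was 107, 29.0, 125 and 80.2 at 6 h in replicates 1, 2, 3 and 5, against 730, 1827 and 987 in vehicle replicates 1, 3 and 4. After normalization the log2 values were 6.39, 5.70, 8.11 and 7.28 at 6 h and 9.05, 10.26 and 9.67 in vehicle. Every 6 h array lay below every vehicle array. The difference was -2.79 ± 0.69 (SE), a 6.91-fold lower value, and ranked 4 from the lowest of the 13710 genes, with a limma adjusted p of 0.147 over all genes. In limma it passed as deposited (-3.58, adjusted p = 0.0057) and with array weights (-3.77, adjusted p = 0.0055), and its adjusted p ran from 0.094 to 0.44 over fits leaving out 1 array.

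At 24 h the arrays were split for Mest. The log2 values were 9.93, 8.24, 7.40 and 7.05 in replicates 1, 2, 3 and 4. Replicate 1 lay within the vehicle range and the other 3 below it. The mean was 8.15 ± 1.28 (SD, n = 4) at 24 h and 9.66 ± 0.60 (SD, n = 3) in vehicle, a difference of -1.50 ± 0.69 (SE; limma adjusted p = 0.65). Without 24 h replicate 1 it was -2.09, and without replicate 4 it was -1.14. Between 24 h and 6 h Mest differed by 1.28 ± 0.64, with overlapping arrays and a limma adjusted p of 0.59, and by 0.69 without 24 h replicate 1.

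Adipoq encodes adiponectin, the most abundant adipocyte hormone in blood. Its log2 values were 11.88, 11.57, 12.45 and 12.84 at 6 h, and 13.06, 12.12, 12.99 and 10.28 at 24 h, against 12.77, 13.25 and 12.84 in vehicle. At both times some treated arrays reached the vehicle range, and 24 h replicate 4 was the lowest of all arrays. The differences were -0.77 ± 0.58 at 6 h (limma adjusted p = 0.54) and -0.84 ± 0.58 at 24 h (limma adjusted p = 0.73). The 24 h value was -0.23 without replicate 4.

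Lep encodes leptin, the hormone that signals fat stores to the brain. Its values were 6.63, 4.70, 9.21 and 8.79 at 6 h, and 8.45, 8.01, 7.76 and 4.00 at 24 h, against 8.86, 9.55 and 8.33 in vehicle. The 6 h arrays formed a low pair (replicates 1 and 2) and a pair within the vehicle range (replicates 3 and 5), and 24 h replicate 4 was at the floor. The differences of -1.58 ± 1.18 at 6 h and -1.86 ± 1.18 at 24 h had limma adjusted p-values of 0.54 and 0.70. Without 6 h replicate 2 the first was -0.71, and without 24 h replicate 4 the second was -0.84. This is the gene with the C/EBP palindrome printed above.

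Retn encodes resistin, which in mice is secreted by adipocytes. Its values were 9.17, 10.22, 10.20 and 10.41 at 6 h, and 11.31, 9.07, 10.74 and 7.01 at 24 h, against 10.52, 11.55 and 10.24 in vehicle. At 24 h Retn ran from an array within the vehicle range to one far below it. The differences were -0.77 ± 0.83 at 6 h and -1.24 ± 0.83 at 24 h (limma adjusted p = 0.67 and 0.73). Without vehicle replicate 3 the first was -0.38, and without 24 h replicate 4 the second was -0.40. The related gene Retnla, made largely by macrophages, averaged 11.71 at 6 h, 10.80 at 24 h and 12.50 in vehicle, with no call, and its 24 h difference of -1.70 was -0.96 without 24 h replicate 4.

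**Figure D2:**
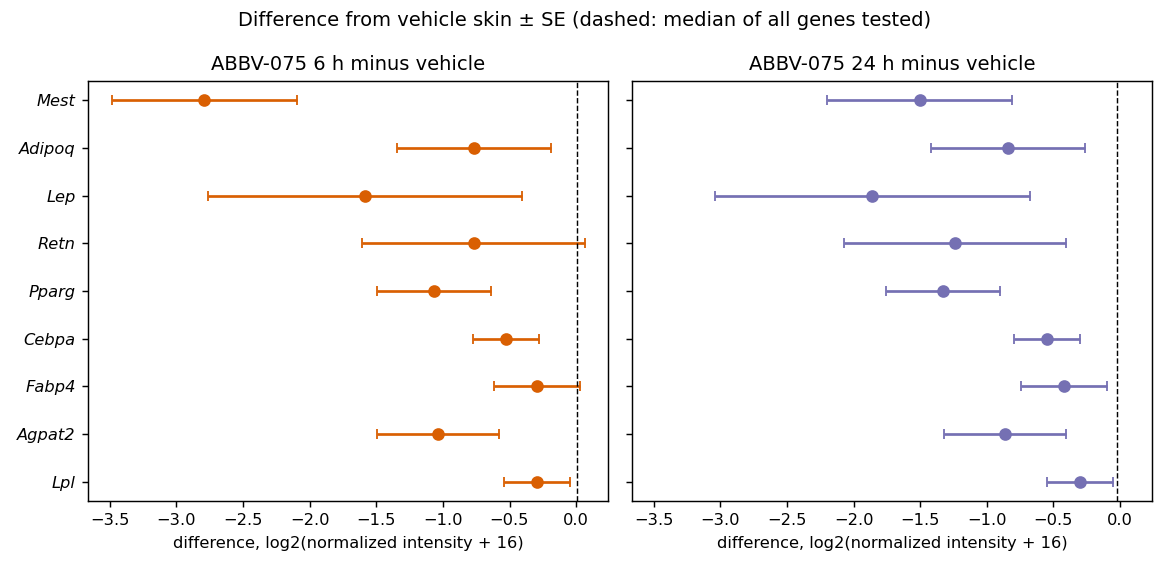
Difference of each treated group from vehicle (points) with its standard error (bars) on the log2(normalized intensity + 16) scale, at 6 h on the left and 24 h on the right. Dashed lines are the median of all 13710 genes, and all 9 points lie to the left of them in both panels, from -2.79 for Mest to -0.30 for Lpl and Fabp4 at 6 h.

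Pparg, the gene of the receptor that drives and maintains adipocyte identity, was the 1 gene of the 9 whose arrays lay wholly below vehicle at both times. Its values were 7.01, 6.75, 7.68 and 7.61 at 6 h, and 7.91, 6.90, 7.38 and 5.81 at 24 h, against 8.43, 8.57 and 7.98 in vehicle. The gap between the groups was narrow at 24 h, where replicate 1 lay just under vehicle replicate 4. The differences were -1.06 ± 0.43 at 6 h (limma adjusted p = 0.27) and -1.33 ± 0.43 at 24 h (limma adjusted p = 0.53). The 24 h value was -0.93 without replicate 4 and -1.63 without replicate 1. In limma, Pparg at 6 h passed as deposited (-1.88, adjusted p = 0.028) and with array weights (-1.45, adjusted p = 0.0098).

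Cebpa encodes the partner factor C/EBPα, which is also made by differentiating keratinocytes. Its values were 10.28, 10.11, 9.77 and 9.27 at 6 h, and 10.20, 9.83, 9.74 and 9.56 at 24 h, against 10.56, 10.36 and 10.23 in vehicle. The differences of -0.53 ± 0.25 and -0.55 ± 0.25 had limma adjusted p-values of 0.33 and 0.65. Without 6 h replicate 5, the array of lowest actin ratio (0.0725), the 6 h difference was -0.33. Over the 11 arrays the Pearson correlation of Cebpa with the other 8 genes ran from 0.19 with Lep to 0.52 with Pparg, and that of Mest with the 7 genes other than Cebpa from 0.51 with Retn to 0.82 with Agpat2. These correlations are descriptions over 11 arrays that share groups and normalization.

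Agpat2 encodes the acyltransferase that makes phosphatidic acid for triglyceride synthesis, and its loss causes generalised lipodystrophy in humans and mice. Its values were 7.50, 8.10, 8.50 and 8.44 at 6 h, and 9.44, 7.96, 8.64 and 7.19 at 24 h, against 8.80, 9.58 and 9.13 in vehicle. All 6 h arrays lay below all vehicle arrays, and 24 h replicate 1 lay within them. The differences were -1.04 ± 0.46 at 6 h (limma adjusted p = 0.30) and -0.87 ± 0.46 at 24 h (limma adjusted p = 0.67). The 24 h value was -1.24 without replicate 1 and -0.49 without replicate 4. In limma, Agpat2 at 6 h passed as deposited (-1.85, adjusted p = 0.032) and with array weights (-1.36, adjusted p = 0.017).

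Fabp4 and Lpl were among the brightest transcripts of the skin. Fabp4, the fatty acid binding protein of adipocytes, ranked between 2 and 278 of 45101 probe sets on the 11 arrays, and Lpl, the enzyme that frees fatty acids from lipoproteins, between 148 and 494. Fabp4 spanned 13.06 to 13.96 at 6 h, 12.56 to 13.96 at 24 h and 13.88 to 13.96 in vehicle. Its vehicle ranks of 2 to 4 lie at the top of the scale, which limits its differences. Lpl spanned 12.49 to 12.89 at 6 h, 11.95 to 12.96 at 24 h and 12.67 to 13.08 in vehicle. The Fabp4 differences were -0.30 ± 0.32 at 6 h and -0.42 ± 0.32 at 24 h (limma adjusted p = 0.67 and 0.75). Those of Lpl were -0.30 ± 0.25 at both times (limma adjusted p = 0.58 and 0.77). Without 24 h replicate 4 the 24 h differences were -0.11 for Fabp4 and -0.087 for Lpl, and without 6 h replicate 2 that of Fabp4 at 6 h was -0.11. After median scaling the 6 h differences were 0.26 for Fabp4 and 0.0088 for Lpl, on the other side of vehicle.

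The probe sets of these 2 genes disagreed in size. The dimmer of the 2 Lpl probe sets gave 11.04, 10.80, 11.12 and 11.26 at 6 h, against 11.58, 12.34 and 12.20 in vehicle, so that every 6 h array lay below every vehicle array. Its difference was -0.98 at 6 h and -0.86 at 24 h, where the brightest probe set gave -0.30. Of the 4 Fabp4 probe sets, the third in brightness differed by -0.61 at 6 h and -1.05 at 24 h, and its 24 h arrays lay wholly below vehicle. The second in brightness differed by -0.045 at 6 h and -0.15 at 24 h, and the dimmest by -0.28 and -0.095. Probe sets of a gene share its RNA and are not replicates, and what sets them apart was not tested.

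**Figure D3:**
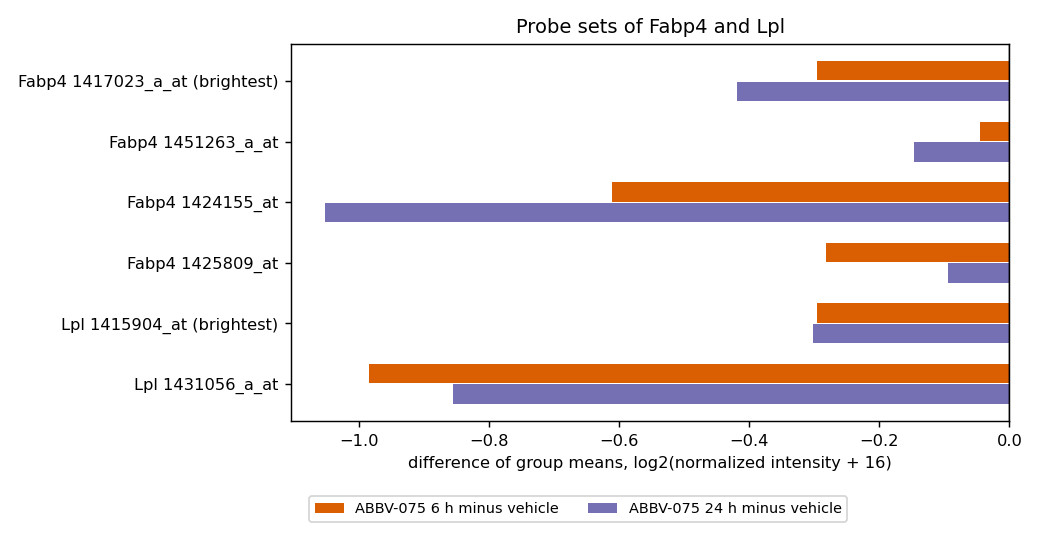
Difference of group means from vehicle for each probe set of Fabp4 and Lpl, at 6 h (orange) and 24 h (purple), on the log2(normalized intensity + 16) scale. All bars point below 0, from -0.045 to -1.05, and the brightest probe set of either gene does not give its longest bar.

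Each gene was also set against the mean of the 17 other adipocyte markers of the same array. This difference describes a gene beside the list mean, which was itself lower at 6 h, so that a gene lowered less stands higher on it. The list did not move as 1. On 24 h replicate 4, Car3 (13.96) and Slc2a4 (8.38) lay within the vehicle range, while Acvr1c (5.08) lay below it. Car3 was near the top of the scale on every array (13.77 to 13.96), which limits its differences. Mest stood between -3.11 and -1.01 at 6 h (mean -2.09 ± 0.87, SD, n = 4), and at -0.11, -0.76, -2.27 and -1.03 at 24 h, against -0.78, 0.21 and 0.01 in vehicle. All 6 h arrays were below vehicle, by -1.90 in the mean, and by -1.99 as deposited. At 24 h the arrays overlapped vehicle.

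Relative to the same markers, Pparg stood at -1.62, -2.07, -1.44 and -1.66 at 6 h, and at -2.12, -2.10, -2.29 and -2.27 at 24 h, against -1.39, -1.48 and -1.68 in vehicle. The 24 h arrays lay together below all other arrays, and replicate 4 no longer stood apart. The mean difference from vehicle was -0.68 at 24 h (-0.69 as deposited) and -0.18 at 6 h. On this measure the Adipoq mean minus that of vehicle was 0.12 (6 h) and -0.20 (24 h), that of Retn 0.12 and -0.59, that of Cebpa 0.36 and 0.10, and that of Agpat2 -0.15 and -0.22, all with overlapping arrays. Without 24 h replicate 4 the 24 h values were 0.04 for Adipoq, -0.12 for Retn and -0.18 for Cebpa, so that 1 array sets the sign or most of the size of each. Lep differed by -0.70 and -1.21, with 6 h replicate 2 at -4.12 and 24 h replicate 4 at -4.08, and by 0.13 and -0.56 without these arrays. The brightest Fabp4 and Lpl probe sets stood higher than in vehicle on every 6 h array, both by 0.59. The second Fabp4 probe set did so too, by 0.84, while the other 2 Fabp4 probe sets and the dimmer Lpl probe set overlapped vehicle. The brightest Fabp4 probe set lay at the top of the scale in vehicle, which limits its relative values. These relative values were not tested, and the share of all genes that lie apart from vehicle on this measure was not counted.

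**Figure D4:**
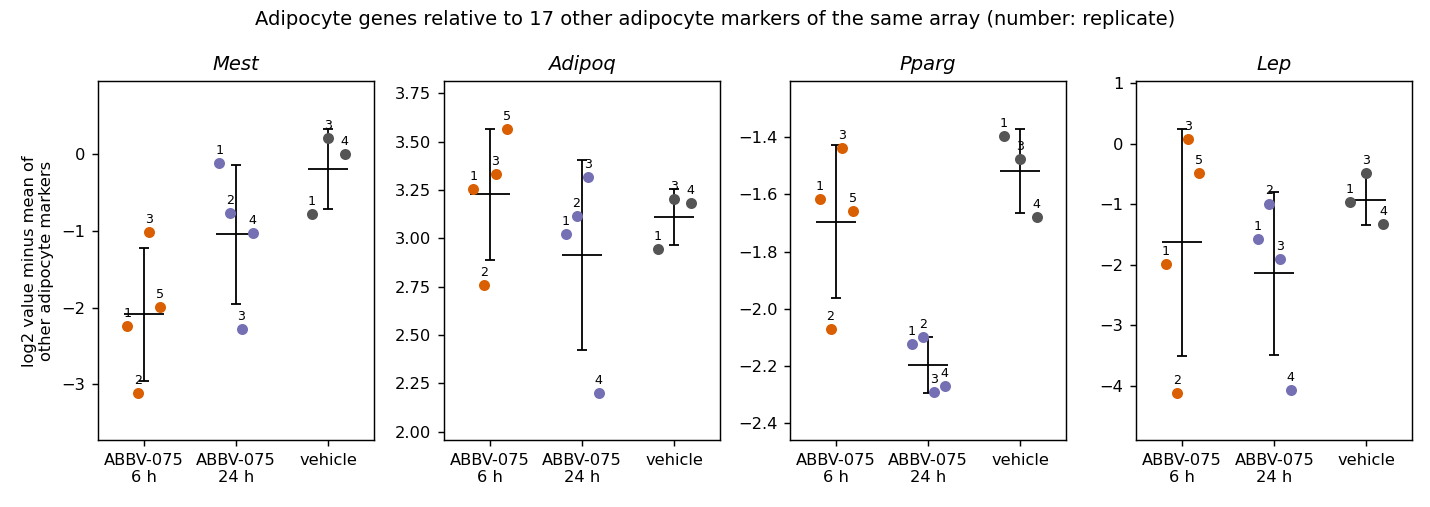
Mest, Adipoq, Pparg and Lep minus the mean of 17 other adipocyte markers on the same array, in log2 units. Points are single arrays with their replicate number, bars are means and error bars SD (n = 4, 4 and 3). The 4 Pparg values at 24 h (-2.29 to -2.10) lie below the 3 vehicle values (-1.68 to -1.39), and the 4 Mest values at 6 h (-3.11 to -1.01) lie below those of vehicle (-0.78 to 0.21).

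The genes with patterns most like Mest over the 11 arrays were Gne (Pearson r = 0.902), Tmem100 (0.894), Kcnj14 (0.890), Sncg (0.885) and Acp5 (0.881). Those most like Adipoq were the adipocyte activin receptor gene Acvr1c (0.987), Amy1 (0.987), Zfp521 (0.983), Itih5 (0.981) and Man1a (0.979). Spearman correlations of these genes ran from 0.85 to 0.94 with Mest and from 0.82 to 0.96 with Adipoq. A Pearson r over 0.7 was reached by 2.89% of genes with Mest and 10.7% with Adipoq. These shares include 24 h replicate 4, the lowest array for Adipoq, and were not counted without it.

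Among other adipocyte markers at 6 h, the lipid droplet gene Plin4 (9.41 against 10.40 in vehicle), the galectin gene Lgals12 (7.11 against 8.46), the glycerol channel gene Aqp7 (5.57 against 6.89) and the lipase gene Lipe (7.35 against 8.54) had the smallest p-values. All 4 lay wholly below vehicle and none was called (limma adjusted p = 0.116 to 0.236). At 24 h these were Dgat2 (10.48 against 11.31), Aqp7 (6.01 against 6.89), Pck1 (9.49 against 10.93) and Plin4 (9.99 against 10.40), with limma adjusted p-values of 0.56 to 0.66, and without 24 h replicate 4 Pck1 differed by -0.94 and Aqp7 by -0.53.

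Of 23 further adipogenic transcription factor genes, 22 were measured and 16 had a lower mean at 6 h (median -0.25) and 16 at 24 h (median -0.24). The preadipocyte factor Zfp423 was at 5.39 at 6 h and 7.19 in vehicle, a difference of -1.80 ± 0.33 with a limma adjusted p of 0.091. The sterol receptor gene Nr1h3 differed by -1.13 at 6 h and Zfp467 by -0.88, and at 24 h Klf15 differed by -1.22 and Ppara by 0.54. The early adipogenic factors Cebpb and Cebpd differed by 0.25 and -0.43 at 6 h and by -0.14 and -0.82 at 24 h, and Rxra, the partner receptor of PPARγ, by -0.20 and 0.15. None was called. Preadipocyte and progenitor markers had lower means in 9 of 10 at 6 h (median -0.35) and 7 of 10 at 24 h (median -0.33, and -0.00093 without 24 h replicate 4), with Pdgfra at -1.04 and -1.20. The 24 h differences of Pdgfra and Cebpd were -0.68 and -0.47 without 24 h replicate 4.

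Other secreted adipocyte factors had lower means in 18 of 20 at 6 h (median -0.79) and 19 of 20 at 24 h (median -0.62, and -0.27 without 24 h replicate 4). Among them C1qtnf1, a relative of adiponectin, differed by -1.18 and -1.03, the second being -0.64 without that array. Adipokine receptors and binding partners had lower means in 6 of 11 at 6 h and 8 of 11 at 24 h. The adiponectin receptor genes Adipor1 and Adipor2 differed by 0.13 and -0.12 at 6 h and by 0.35 and -0.39 at 24 h, and the leptin receptor gene Lepr by -0.019 and -0.49. Complement factor B, Cfb, the substrate of adipsin, differed by -1.26 and -1.31, and by -0.79 and -0.84 without vehicle replicate 1. At 24 h, Cfb differed by -0.80 and Lepr by -0.24 without 24 h replicate 4. None of these was called.

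Partners of the lipid enzymes were lower in part. Gpihbp1, the endothelial protein that carries lipoprotein lipase to the vessel wall, was at 6.33 at 6 h, 7.43 at 24 h and 7.82 in vehicle, wholly below vehicle at 6 h (-1.50 ± 0.44, limma adjusted p = 0.18). Lmf1, which folds the lipase, differed by -1.37 at 6 h, where replicate 5 was at the floor, and by -0.78 at 24 h. Angptl4, which inhibits it, differed by -0.40 and 0.17, and by 0.15 at 6 h without 6 h replicate 2, which alone gives the first its sign. Glycerolipid synthesis enzymes had lower means in 11 of 14 at 6 h (median -0.21) and 9 of 14 at 24 h (median -0.17, and -0.014 without 24 h replicate 4), and Agpat1 differed by -0.20 and -0.28. The epidermal paralogue Fabp5 differed by 0.0057 and -0.030, and the muscle paralogue Fabp3 by 0.89 and 1.83, none of them called.

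Imprinted growth genes, the group to which Mest belongs, had lower means in 12 of 15 at 6 h (median -0.58) and 10 of 15 at 24 h (median -0.26, and -0.11 without 24 h replicate 4). Nnat differed by -1.94 at 6 h, Sgce by -1.02, Gnas by -0.81 and Grb10 by -0.66, each wholly below vehicle and none called. Thermogenic adipocyte genes had lower means in 3 of 8 at 6 h and 1 of 8 at 24 h, and Ucp1, the defining gene of brown fat, was below the filter. Sebocyte markers, the other lipid-rich cell of skin, had lower means in 3 of 9 at 6 h and 5 of 9 at 24 h.

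Markers of other cell types differed between the arrays as well. Endothelial markers had lower means in 11 of 12 at both times. Hair shaft markers did so in 9 of 9 at 6 h (median -1.06) and 8 of 9 at 24 h (median -0.53), but 1 vehicle array stood high. Their mean was 8.57 in vehicle replicate 4 and 5.79 and 5.65 in vehicle replicates 1 and 3, against 4.89 to 6.53 at 6 h. At 24 h it was 8.93 in replicate 2 and 5.03 to 5.29 in the others. Mast cell markers had lower means in 5 of 6 at 6 h (median -0.62) and 6 of 6 at 24 h (median -0.91, and -0.43 without 24 h replicate 4). Suprabasal keratinocyte markers had lower means in 2 of 9 and 4 of 9, and skeletal muscle markers in 9 of 13 and 1 of 13. Fibroblast markers (12 of 12 measured) averaged 11.14 to 11.53 at 6 h, 10.12 to 11.78 at 24 h and 11.82 to 11.89 in vehicle. Endothelial markers (12 of 12) averaged 6.83 to 7.02, 6.31 to 7.54 and 7.39 to 8.01, and macrophage markers (11 of 12) 9.22 to 10.32, 8.03 to 10.62 and 10.40 to 11.53 in the same order. Basal keratinocyte markers (9 of 10) averaged 9.74 to 11.19 at 6 h, 9.91 to 11.89 at 24 h and 9.54 to 10.21 in vehicle, and skeletal muscle markers (13 of 13) 11.83 to 12.70, 12.42 to 13.19 and 11.90 to 12.89. 24 h replicate 4 held the lowest fibroblast, endothelial and macrophage means and the highest basal keratinocyte mean of all arrays. At 6 h, replicates 1 and 2, the arrays of lowest Mest, Adipoq and Lep, had basal keratinocyte means of 11.19 and 10.95, where replicates 3 and 5 had 9.88 and 9.74. Outside the hair shaft list, most defining markers were above 0 on every array. The exceptions were Pecam1 (1 array at 6 h and 1 at 24 h), Tie1 (1 at 6 h) and Itgb4 (1 at 6 h and 1 in vehicle). The hair shaft genes Krt27, Krt34 and Krtap3-1 were at the floor on 1 or more treated arrays. The part of this makeup in the adipocyte values was not tested.

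**Figure D5:**
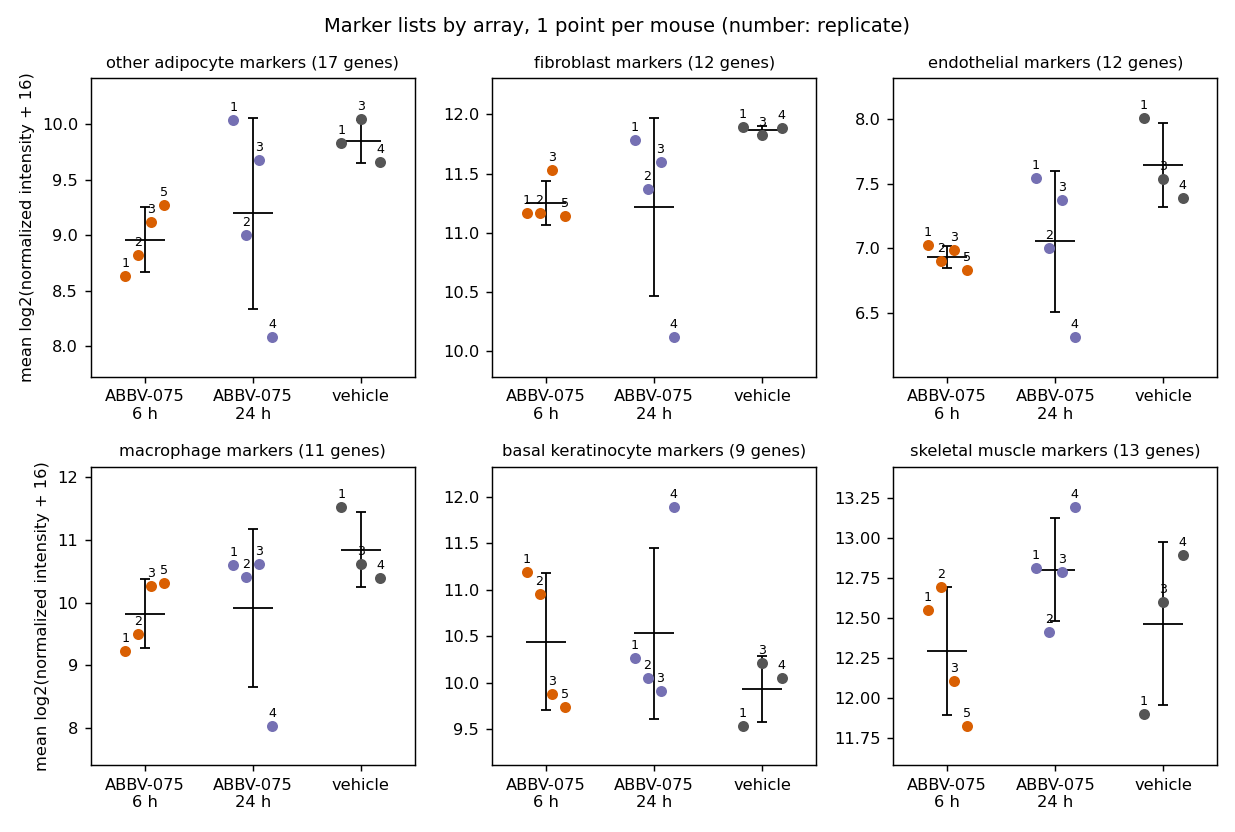
Mean log2(normalized intensity + 16) of 6 marker lists on each array, with replicate numbers, group means and SD (n = 4, 4 and 3). Replicate 4 at 24 h is the lowest point for adipocyte (8.08), fibroblast (10.12), endothelial (6.31) and macrophage (8.03) markers and the highest for basal keratinocyte markers (11.89).

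Between 24 h and 6 h, 7 of the 9 genes had a lower mean at 24 h and 2, Mest and Agpat2, a higher one, with a median difference of -0.075. The differences apart from that of Mest ran from -0.47 for Retn to 0.17 for Agpat2. Of all genes, 52.5% had a lower mean at 24 h. None of the 9 lay wholly below the 6 h arrays, where 3.52% of all genes did. Without 24 h replicate 4 all 9 means were higher at 24 h, with a median of 0.37, and with the replicate number as a block 1 of 9 was lower. Without 24 h replicate 1 the Agpat2 difference was -0.21. The order of the times for Adipoq, Lep, Retn, Pparg, Cebpa, Fabp4, Agpat2 and Lpl was therefore not settled by these arrays. Mest was higher at 24 h under every alternative (0.69 to 2.53), with overlapping arrays and no call.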

How the data were processed

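Skin RNA was measured on 11 Affymetrix 3′ arrays of 45101 probe sets, each taken as 1 mouse. The values are intensities as the authors deposited them, on a linear scale, with 12.9% to 16.6% below 0 per array; which software and scaling made them is not given in the sources used here. The number of arrays limits precision. Of the probe sets, 34958 name 1 gene, 932 several and 9211 none, and 34754 symbols were updated through Entrez identifiers. Intensities were quantile normalized, set to 0 where negative, and taken as log2(value + 16). The brightest probe set stood for a gene, and 13710 of 18194 genes above the 40th percentile on at least 3 arrays were kept. A single model over all arrays was fitted with limma 3.58.1 in R 4.3.3 (lmFit, eBayes), with Benjamini-Hochberg adjustment over all genes kept and a threshold of 0.05. Each p measures only the spread between these samples.

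The genes and gene lists were chosen with earlier results of these data known. The text names the 10 genes, up to 4 genes of smallest p per list and time against vehicle, the 5 genes most correlated with Mest and with Adipoq, and a fixed set of partners and paralogues. On simulated data for 6 h against vehicle (13710 genes), limma called 43% of 100 genes lowered by 1 and 84% of 100 lowered by 2. It also called 5 unchanged genes. The simulated noise was independent between genes, of equal spread in all groups and without array-wide shifts. The arrays here differ from that in brightness and makeup, so these shares do not give the power reached on them. Replicate numbers come from the labels. Deviations of same-numbered vehicle and 24 h arrays correlated at 0.25, 0.14 and 0.20. Those of differently numbered vehicle and 24 h arrays ran from -0.35 to 0.21, so the numbers were not shown to be pairs. The main model holds no pairing, and the replicate block is an alternative only. Same-numbered 6 h and 24 h arrays gave -0.064, -0.35 and 0.17, and same-numbered 6 h and vehicle arrays -0.12 and -0.074. Alternatives covered the normalization, filter, pseudocount, probe set rule, variance model, array weights, actin ratio, replicate block and each array left out. Leaving out 3 arrays of actin ratio under 0.3, and leaving out single arrays for other named genes and for values relative to the adipocyte markers, were chosen after seeing the data.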

Additional observations from a re-analysis of the deposited data

Results flagged for a closer look

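For 3 genes a single array stood apart from the others of its group, its gap to the nearest array, as a share of the group's range, being above Dixon's critical value. Lep at 24 h was 4.00 in replicate 4, the floor of the scale, where the nearest array had 7.76. Retn at 6 h was 9.17 in replicate 1, where the nearest had 10.20. Lpl at 6 h was 12.89 in replicate 5, the highest of its group, where the nearest had 12.52. The test was made on 18 groups of 4 arrays, and chance sets apart an array in about 5% of groups.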

How the results depend on the processing

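Of the single-gene values under the alternatives, 688 kept direction and side of the threshold, 9 passed it and 44 changed sign. Genes called at 6 h numbered 852 as deposited (850 lower), 2497 with array weights, 18 with no filter, 7 with the mean of probe sets, 1 with only the compared arrays, 1 with the replicate block, and 0 to 23 leaving out 1 array (23 without 24 h replicate 4, 2 without 6 h replicate 2). At 24 h they were 6 as deposited, 1 with no filter, 59 with array weights and 0 to 1 leaving out 1 array. Between 24 h and 6 h they were 2 with the mean of probe sets, 410 with array weights, 1 once x_at and s_at sets were dropped, 1 with the actin ratio as a covariate, and 0 to 7 leaving out 1 array (7 without 6 h replicate 5). Passing limma at 6 h with array weights were also Adipoq (-1.29), Lep (-3.30) and Lpl (-0.49). For these genes the most heavily weighted arrays, vehicle replicate 3 (4.88) and 6 h replicate 2 (2.87), were the highest of vehicle and the lowest of 6 h. Median scaling turned Fabp4 (0.26) and Lpl (0.0088) at 6 h.

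All other changes of sign concern 24 h minus 6 h, where the number of the 9 genes lower was 7, against 1 with array weights, 1 with the replicate block, 2 without the 3 arrays of low actin ratio and 0 to 8 leaving out 1 array. With array weights Adipoq differed by 0.91, Lep 1.99, Retn 0.55, Pparg 0.52, Fabp4 0.44 and Lpl 0.31. With the replicate block Adipoq differed by 0.46, Lep 0.80, Retn 0.19, Pparg 0.10, Fabp4 0.15 and Lpl 0.19. Without the low actin arrays Adipoq differed by 0.38, Lep 1.07, Pparg 0.15, Fabp4 0.095 and Lpl 0.12. Cebpa was 0.045 as deposited and 0.043 with cyclic loess, Lpl 0.050 with cyclic loess, 0.061 with the mean of probe sets and 0.13 with its dimmer probe set, Fabp4 0.19 with its dimmest, and Lep 0.26 with the actin covariate. Leaving out 1 array gave Adipoq -0.39 to 0.53, Lep -1.15 to 0.75, Retn -1.06 to 0.37, Pparg -0.57 to 0.14, Cebpa -0.22 to 0.12, Fabp4 -0.31 to 0.19, Agpat2 -0.21 to 0.54 and Lpl -0.13 to 0.21. The cause was not tested. The replicate block changed no call of the 9 genes. Lep at the floor limits its differences, since values there have no order.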
